A study of Drosophila melanogaster with 3 samples.

Results

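Scute is a proneural bHLH transcription factor, and its tagged form was examined here at 9 genes of the ecdysone response. These are the receptor genes EcR and usp, the ecdysone-induced genes Eip74EF, Eip75B and Eip78C, and the nuclear receptor genes Hr3, Hr4, Hr39 and ftz-f1. The genes were chosen by their role in the hormone response, though with earlier results of these data known. They are 9 of the 13945 protein-coding genes annotated on the 6 main chromosome arms. All libraries came from a single group of whole Drosophila melanogaster embryos, collected 0 to 14 h old with both sexes pooled, of the transgenic sc-GFP strain, which stably expresses Scute with GFP fused to its C terminus. An antibody against GFP pulled down chromatin sheared by sonication to 200 to 800 bp, in 3 biological replicates. There was no second genotype, treatment or time, so no comparison between groups could be made and no p-value is given. Whole embryos mix all cell types, so fewer cells with a bound site and weaker binding per cell cannot be told apart.

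Ecdysone is the steroid hormone of insects. Its active form binds a heterodimer of EcR and Ultraspiracle, the product of usp, which switches on a small set of early genes, and their products in turn regulate one another and the later genes. In the embryo a pulse of hormone in mid-embryogenesis accompanies germ band retraction and head involution. Most of these genes have several starts, each giving a protein isoform with its own beginning or its own timing.

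A gene was given every region whose summit, the point of highest signal, lay in the gene body or within 2 kb upstream, an interval called its territory below. The authors' thresholded set, the regions that passed their reproducibility threshold, held 3612 regions, and 38 of them had summits at these genes. They lay at 6 of the 9 genes: Eip75B with 11, Hr3 and Hr4 with 8 each, EcR with 5, and Eip74EF and ftz-f1 with 3 each. The genes usp, Eip78C and Hr39 had none. Among all protein-coding genes 20.5% had a thresholded summit, and among the 1143 with a territory of at least 20 kb, as 8 of these 9 have, 51.2% had one. At least 3 summits were found at 6 of the 9 genes, against 2.10% of all protein-coding genes and 18.5% of those with a territory of at least 20 kb. The median count was 3 summits over the 9 genes, 0 over all protein-coding genes and 1 over those with a territory of at least 20 kb. Summits within 250 bp of one another were counted separately. The 9 territories cover 489.5 kb, so the density was 0.776 summits per 10 kb, against 0.308 over the territories of all protein-coding genes and 0.255 over those of at least 20 kb. Because earlier results of these data were known when the genes were chosen, these comparisons are descriptions only.

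**Figure D1:**
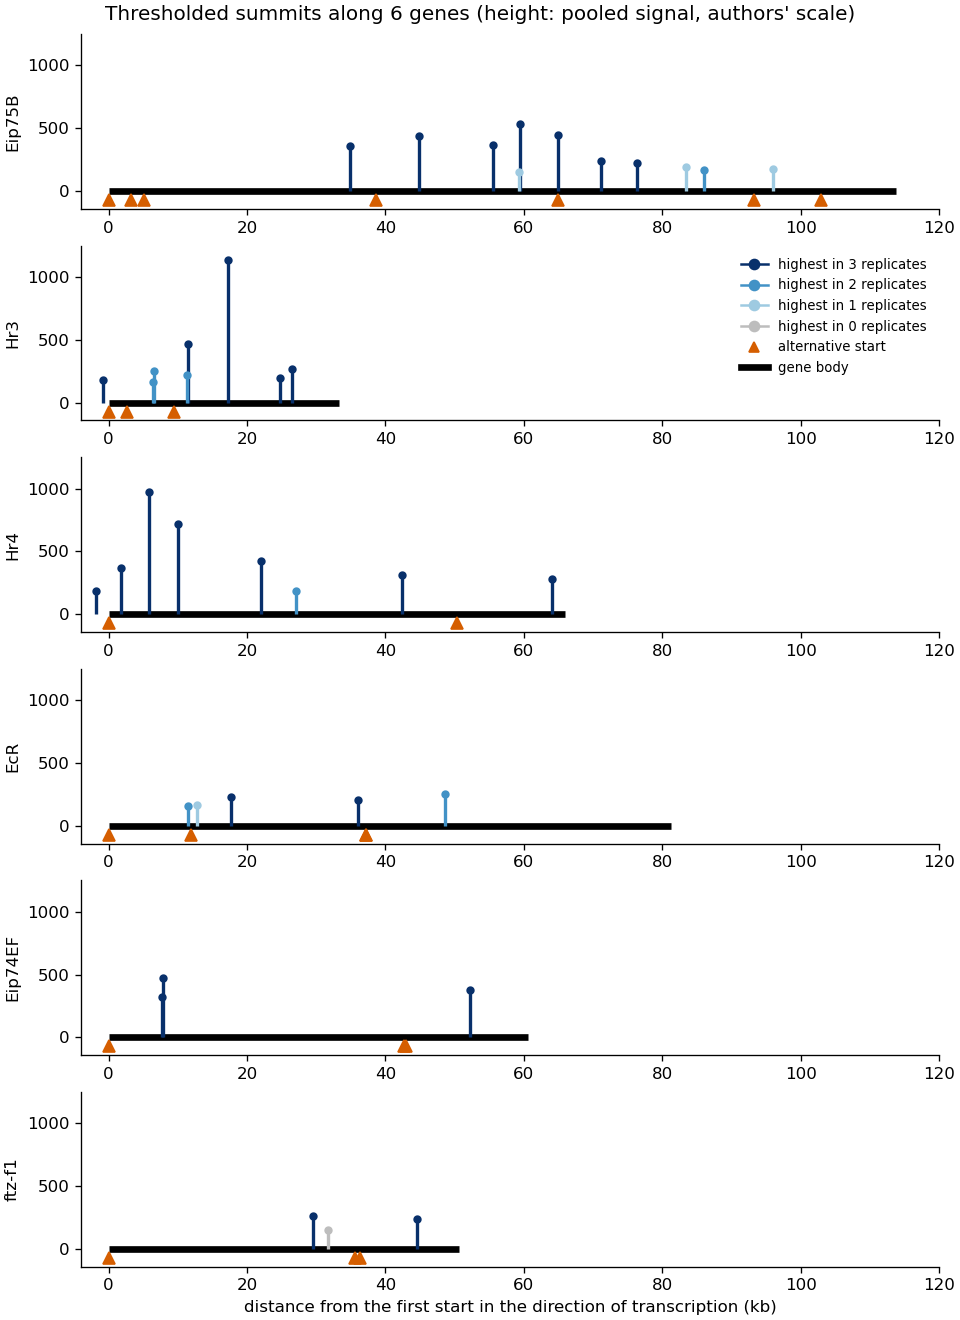
Thresholded summits along the 6 genes that hold them. The x axis is the distance in kb from the first start in the direction of transcription, the y axis is the pooled signal on the authors' own scale, darker lines were among the highest in more replicates, black bars are gene bodies and triangles are alternative starts; the tallest lines stand inside Hr3 (1131) and Hr4 (975), and the 11 lines of Eip75B begin 34.9 kb inside the gene.

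The replicate lists gave like counts when each was read by itself. Each list held 30000 regions, and its 3612 highest were taken to equal the thresholded set in number. Replicates 1, 2 and 3 had 36, 40 and 39 such regions in the 9 territories, or 38.3 ± 2.08 (SD, n = 3), at 7, 6 and 7 of the genes. The share of all protein-coding genes with such a region was 21.6%, 20.8% and 20.2% in the same replicates. No such share was taken by replicate for genes with a territory of at least 20 kb. In the thresholded set theirs was 51.2%, against 20.5% of all protein-coding genes. Eip75B held 10, 10 and 9 of the highest regions in replicates 1, 2 and 3, Hr4 held 9, 10 and 9, and Hr3 held 7, 8 and 8. EcR held 4, 5 and 5, Eip74EF held 3 in each, and ftz-f1 held 2, 4 and 4. The counts of Eip75B and Hr4 overlapped between replicates and so did those of ftz-f1 and Eip74EF, whereas the 3 genes with most regions did not overlap with EcR. The gene usp held 1, 0 and 1, and Eip78C and Hr39 held 0 in each. The replicates differ in how many regions they call at a q-value under 5%, with 4853, 6346 and 6435, and the 9 territories held 44, 64 and 57 of those. In the pooled list, 8 of the 9 genes had a region with a q-value under 5% below the authors' threshold, against 15.5% of all protein-coding genes. Of the 8 with a territory of at least 20 kb, 7 had one, against 572 of the 1143 such genes.

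**Figure D2:**
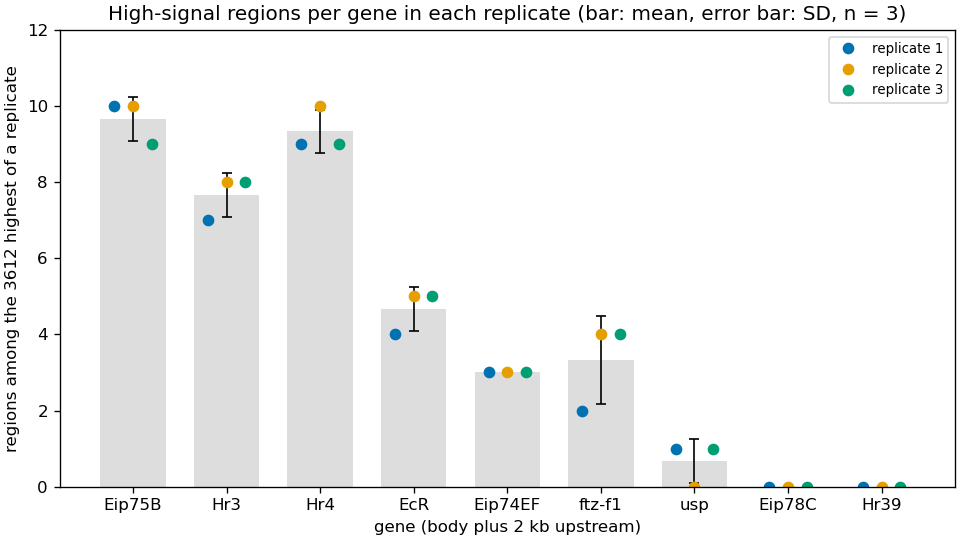
Number of regions among the 3612 highest of each replicate list, by gene. Grey bars are means, error bars are SD over 3 replicates and points are the replicates; Eip75B, Hr4 and Hr3 hold 7 to 10 regions in every replicate, and Eip78C and Hr39 hold 0.

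The genes were also ordered by the best region in each replicate list, where rank 1 is the highest signal. Hr3 came first with ranks of 36, 42 and 54 in replicates 1, 2 and 3 (44 ± 9.17, SD, n = 3), and Hr4 followed with 71, 80 and 73 (74.7 ± 4.73). Their ranks did not overlap. Eip75B had 492, 506 and 291 (430 ± 120) and Eip74EF had 773, 519 and 363 (552 ± 207), and these overlapped. EcR had 1795, 913 and 1392 (1367 ± 442) and ftz-f1 had 1505, 890 and 2029 (1475 ± 570), which overlapped as well. Every rank of Eip74EF was better than every rank of EcR. The best region of usp ranked 1802, 6783 and 3574 (4053 ± 2525), overlapping with both ftz-f1 above it and Eip78C below it, which had 5498, 5265 and 7013 (5925 ± 949). Hr39 came last with 10297, 11074 and 8345 (9905 ± 1406), beyond every rank of the other 8 genes.

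EcR and usp encode the partners of the hormone receptor. EcR (FBgn0000546) lies on 2R from 6087873 to 6169087 on the minus strand, with 4 alternative starts, and its 5 summits all lie between 11.5 and 48.6 kb from the first of these. Its strongest region by pooled signal (254) is intronic, at 6120223 to 6120652, 11403 bp downstream of the start of EcR-RG. Its ranks were 1795, 913 and 9157 in replicates 1, 2 and 3, so it was high in replicates 1 and 2 and low in replicate 3. The region at 6151200 to 6151629, with ranks of 2288, 1182 and 1515, was among the highest in every replicate, as was the one at 6132885 to 6133314, with 1937, 2560 and 1392. That region stands 1178 bp upstream of the start shared by EcR-RB and EcR-RC. The start shared by EcR-RD and EcR-RE has a region on each side, with summits 426 bp upstream and 860 bp downstream. These were weaker, with pooled signals of 158 and 165 and mean ranks of 3271 ± 1146 and 4259 ± 1490 (SD, n = 3). The first start, that of EcR-RA, is 11532 bp from the nearest summit. The introns of EcR also hold several tRNA genes and transposable elements, none of which contains a thresholded summit.

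The partner gene usp (FBgn0003964) is short, on X from 2038798 to 2042311 on the minus strand, with a territory of 5.51 kb. It held no thresholded summit, and its best pooled region fell just past the threshold at rank 3752, with a pooled signal of 142. That summit, at 2041450, lies 138 bp from the start of usp-RA. It matched a region ranking 1802 in replicate 1 and 3574 in replicate 3, both among the highest 3612 of their lists, and none within 250 bp in replicate 2. The best region of replicate 2 in the territory ranked 6783. The annotated model of another gene, Actn, shares the outer start of usp, and CG4313 begins inside its territory, so the region could equally be counted for either.

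Among the early genes, Eip74EF (FBgn0000567) encodes an ETS-domain transcription factor. It lies on 3L from 17558672 to 17619325 on the minus strand. A pair of intronic summits 199 bp apart stands 7910 and 7711 bp downstream of the start shared by Eip74EF-RA, Eip74EF-RC and Eip74EF-RE, with pooled signals of 475 and 321. The stronger of the pair had signals of 114, 186 and 179 and ranks of 773, 519 and 363 in replicates 1, 2 and 3. The weaker had ranks of 1983, 999 and 1488. The remaining region, an intronic one farther downstream at 17566966 to 17567134, had ranks of 1218, 833 and 723. All 3 regions were among the highest in all 3 replicates. Replicate 1 gave the worst rank to each of them. The stronger summit of the pair has the lowest GC content of the 38 windows, 18.9%. The 201 bases around it and around the downstream summit are shown as the strongest sites of the gene, from the plus strand of Release 6 (dm6). The first held none of the motifs searched, and capitals in the second mark a nuclear receptor half-site, AGGTCA on the minus strand. The first window lies at chr3L:17611315-17611515 and the second at chr3L:17566954-17567154.
Eip74EF stronger: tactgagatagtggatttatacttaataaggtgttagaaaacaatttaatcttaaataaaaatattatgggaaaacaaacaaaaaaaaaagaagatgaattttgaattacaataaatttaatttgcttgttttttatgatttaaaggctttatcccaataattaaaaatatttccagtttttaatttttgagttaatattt
Eip74EF downstream: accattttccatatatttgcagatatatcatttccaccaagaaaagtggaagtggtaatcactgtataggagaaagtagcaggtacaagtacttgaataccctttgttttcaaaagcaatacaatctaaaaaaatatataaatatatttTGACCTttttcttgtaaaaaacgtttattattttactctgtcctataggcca

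Eip75B (FBgn0000568) encodes a nuclear receptor that binds heme and counteracts Hr3 protein. It lies on 3L from 17950953 to 18064696 on the minus strand and has 7 alternative starts. Only 4 of all 13945 protein-coding genes held 11 or more thresholded summits, and Eip75B is one of them. Regions are numbered here by position along the arm, so region 11 is the one nearest the outermost start. The 3 outer starts, those of Eip75B-RB, Eip75B-RE and Eip75B-RF, are 29787, 31642 and 34885 bp from the nearest thresholded summit. The summits instead run from 34.9 to 96.0 kb inside the gene, around the inner starts. A single one stands at a start, region 6, whose summit is 48 bp downstream of the start of Eip75B-RC in its 5' UTR. Its signals were 114, 177 and 166 and its ranks 779, 571 and 428 in replicates 1, 2 and 3.

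The strongest of Eip75B was region 7, at 18005098 to 18005212, 5385 bp upstream of the same start. Its signals were 142, 188 and 199 and its ranks 492, 506 and 291. Region 10 had the smallest spread, with ranks of 678, 570 and 685. Regions 9 and 11 followed with 1003, 1076 and 579 and with 734, 677 and 2152, and region 11 was thus weaker in replicate 3. In all, 7 of the 11 regions were among the highest in all 3 replicates. The 3 nearest the end of the gene, regions 1, 2 and 3, were not, and their ranks ran from 1521 to 6411. Region 8, 199 bp from region 7, was matched in replicate 1 at rank 863 and in neither other replicate. Each replicate region was matched to its nearest thresholded summit only, so one nearer to region 7 would not count for region 8. Windows of 201 bases from the dm6 plus strand are shown for the strongest region, at chr3L:18005106-18005306, and for regions 10 and 4, at chr3L:18019702-18019902 and chr3L:17988238-17988438. Regions 10 and 4 are shown because both hold the word AGATGGCGC, in capitals, which was picked out after their sequences were seen.
Eip75B region 7: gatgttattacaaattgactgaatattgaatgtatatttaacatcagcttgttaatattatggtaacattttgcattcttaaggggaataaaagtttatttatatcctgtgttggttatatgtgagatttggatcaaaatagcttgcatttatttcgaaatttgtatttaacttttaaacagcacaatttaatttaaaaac
Eip75B region 10: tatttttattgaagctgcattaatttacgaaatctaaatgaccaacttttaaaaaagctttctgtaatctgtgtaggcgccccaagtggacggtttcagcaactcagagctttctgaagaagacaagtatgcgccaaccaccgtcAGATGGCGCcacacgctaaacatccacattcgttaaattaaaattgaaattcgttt
Eip75B region 4: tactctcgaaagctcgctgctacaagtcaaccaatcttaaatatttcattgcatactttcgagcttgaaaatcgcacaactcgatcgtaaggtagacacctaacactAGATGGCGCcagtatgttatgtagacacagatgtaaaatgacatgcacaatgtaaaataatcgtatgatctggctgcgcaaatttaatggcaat

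Eip78C (FBgn0004865), a nuclear receptor gene related to Eip75B, stood apart from its relative. It lies on 3L from 21226609 to 21266503 with a territory of 41.9 kb, and no thresholded summit was found in it. The nearest to any of its 3 starts is 36156 bp away. Its best pooled region, with its summit at 21253870, ranked 6001 with a pooled signal of 102. It was the only one of its 14 pooled regions with a q-value under 5%.

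**Figure D3:**
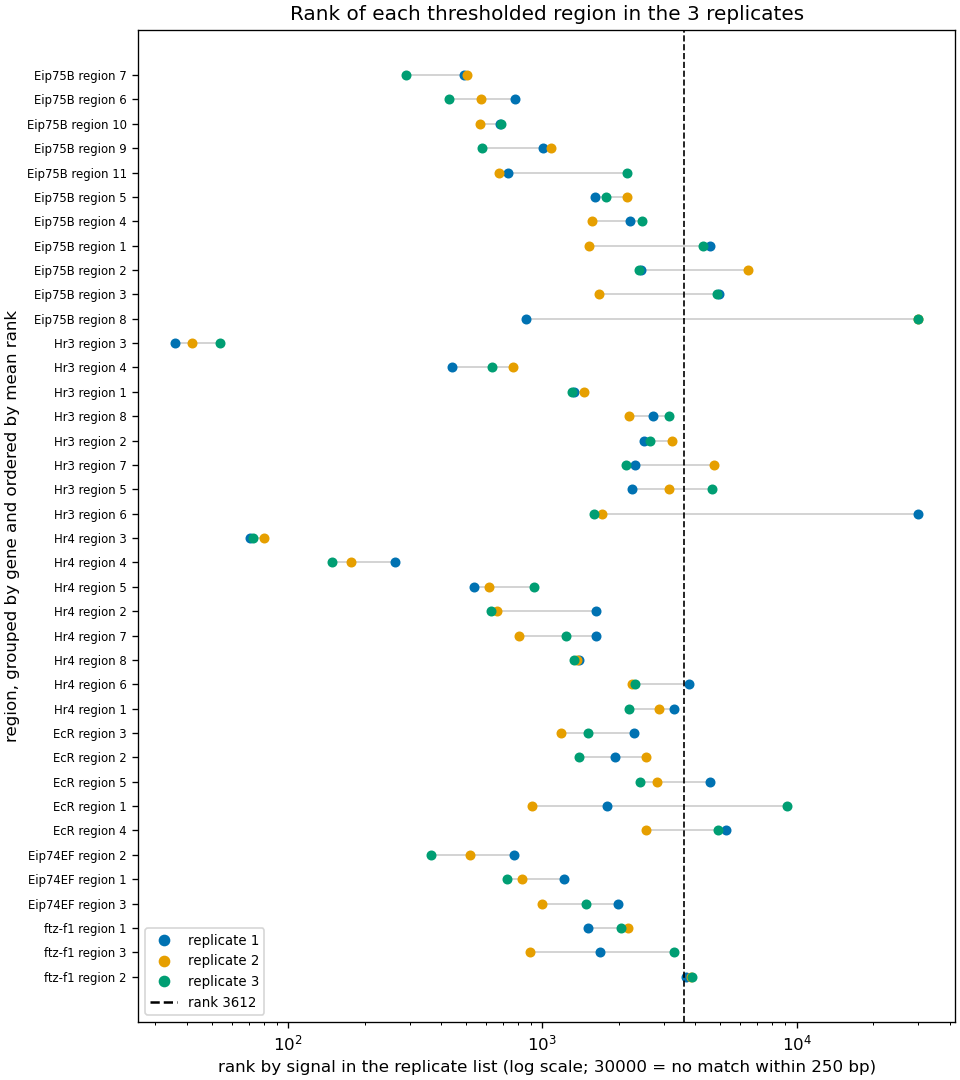
Rank by signal of each of the 38 thresholded regions in the 3 replicate lists, on a log axis where rank 1 is the highest. Points are replicates, grey lines join the points of a region and the dashed line is rank 3612. The best regions of Hr3 (36 to 54) and Hr4 (71 to 80) lie farthest toward rank 1. Eip75B region 8 and Hr3 region 6 run to 30000, which stands for no match. A replicate region was matched only to its nearest thresholded summit, within 250 bp.

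Hr4 and Hr3 are nuclear receptor genes of the next tier: Hr3 protein activates ftz-f1, and Hr4 protein represses early genes at metamorphosis. Hr4 (FBgn0264562) lies on X from 1941940 to 2007956, with 2 starts. A total of 21 protein-coding genes held 8 or more thresholded summits, Hr4 and Hr3 among them. The strongest of Hr4, region 3, at 1947592 to 1947904, lies in an intron 5807 bp downstream of the first start. Its signals were 299, 366 and 313 and its ranks 71, 80 and 73 in replicates 1, 2 and 3. Region 4, at 1951766 to 1952031 and 9972 bp downstream of the same start, had signals of 185, 279 and 254 and ranks of 262, 177 and 148. The best region was ahead of the second in every replicate. Region 5, 21964 bp downstream, had ranks of 536, 615 and 930, and region 2, 1826 bp downstream, had 1624, 664 and 629.

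The others of Hr4 were spread over the gene. Region 7, 7959 bp upstream of the inner start, had ranks of 1620, 806 and 1240, and region 8, in the annotated 3' UTR, had 1396, 1369 and 1328. Region 6 ranked 3770, 2256 and 2310, outside the highest in replicate 1 only. Region 1 lies 1783 bp upstream of Hr4 but 117 bp from the start of CG3857, and it ranked 3300, 2886 and 2192. Its summit, at 1940157, stands between that start, at 1940040, and the start of CG3587, at 1940307 on the opposite strand. The windows of regions 3 and 4 are shown as the strongest whose sequence is given, at chrX:1947647-1947847 and chrX:1951812-1952012 on the plus strand of dm6. Capitals in the first mark the E-box CATATG, a site of the kind bHLH proteins bind, 17 bp from the summit. The second held none of the 10 motifs searched.
Hr4 region 3: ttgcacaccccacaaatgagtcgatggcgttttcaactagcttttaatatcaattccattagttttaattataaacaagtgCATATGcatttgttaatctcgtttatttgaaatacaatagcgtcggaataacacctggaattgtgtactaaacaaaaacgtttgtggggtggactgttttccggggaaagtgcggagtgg
Hr4 region 4: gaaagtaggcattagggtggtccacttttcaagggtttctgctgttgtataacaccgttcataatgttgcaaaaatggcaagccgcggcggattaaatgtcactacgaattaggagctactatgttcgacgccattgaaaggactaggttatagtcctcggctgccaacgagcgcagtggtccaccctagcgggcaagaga

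The nuclear receptor encoded by ftz-f1 (FBgn0001078) sets the competence of tissues to respond to the next pulse and in the early embryo acts with the pair-rule protein Fushi tarazu. The gene lies on 3L from 18750607 to 18801309 on the minus strand. Its 3 summits had pooled signals of 239, 151 and 263, and only the second was below the median of all thresholded regions, 232. The first, at 18756497 to 18756926 toward the end of the gene, had ranks of 1505, 2170 and 2029 in replicates 1, 2 and 3. The third, at 18771608 to 18772037, had 1688, 890 and 3285, and lies 6079 bp upstream of the start shared by ftz-f1-RC and ftz-f1-RD. The second, at 18769330 to 18769759, had 3664, 3853 and 3888. It was the only one of the 38 outside the highest 3612 of every replicate, each time by a small margin. The outer start, that of ftz-f1-RB, is 29486 bp from the nearest summit. The third window, at chr3L:18771723-18771923 on the plus strand, holds the nuclear receptor half-site AGGTCA read on the minus strand, in capitals.
ftz-f1 region 3: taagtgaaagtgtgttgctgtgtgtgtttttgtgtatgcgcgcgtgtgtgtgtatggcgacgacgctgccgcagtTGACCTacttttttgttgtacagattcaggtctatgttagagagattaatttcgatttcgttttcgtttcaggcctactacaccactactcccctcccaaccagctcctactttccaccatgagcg

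Hr39, a relative of ftz-f1 with a closely similar binding site, was the weakest locus of all. Hr39 (FBgn0261239) has a single annotated start position and lies on 2L from 21237250 to 21259675. Its territory held 4 of the 30000 pooled regions, and none had a q-value under 5% in the pooled list or in any replicate. The best of them ranked 12691 with a pooled signal of 63.0.

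The strongest region of the whole set of genes lay at Hr3 (FBgn0000448), on 2R from 10203995 to 10237348 on the minus strand. Its region 3, at 10219889 to 10220264, had a pooled signal of 1131 and a pooled rank of 44. Its signals were 351, 434 and 349 and its ranks 36, 42 and 54 in replicates 1, 2 and 3. It is intronic, 7912 bp downstream of the start shared by Hr3-RA, Hr3-RF and Hr3-RH. Region 4, 2091 bp downstream of that start, had ranks of 442, 764 and 632. Region 1 had 1328, 1452 and 1306, and region 2 had 2521, 3226 and 2653. Region 4 stood 200 bp from region 5 and region 6 stood 199 bp from region 7. Of these 4, only region 4 was among the highest in all 3 replicates, and region 6 had no match in replicate 1. A replicate region nearer to region 7 would not count for region 6. Region 8 lies 826 bp upstream of the start of Hr3-RD but 186 bp from that of Hdc, the histidine decarboxylase gene, and ranked 2724, 2188 and 3138. At 2.26 summits per 10 kb Hr3 had the densest coverage of the 9 genes, against 1.18 for Hr4, 0.950 for Eip75B, 0.601 for EcR, 0.569 for ftz-f1 and 0.479 for Eip74EF. The annotation places CG12912 and CG46321 over the same locus, and their bodies hold 7 and 5 of the 8 summits, so these regions cannot be credited to Hr3 alone.

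Across the 38 regions the signal was near that of the thresholded set at large. The median pooled signal was 252 against 232 for all 3612 regions, and 22 of the 38, or 57.9%, were in the stronger 50% of the set. Of the 38, 2 were among the best 100, or 5.26% against 2.77% of the 3612, and 13 among the best 1000, or 34.2% against 27.7%. With each replicate region given to its nearest thresholded summit within 250 bp, 26 of the 38 were among the highest of all 3 replicates, 7 of 2, 4 of 1 and 1 of none. That share, 68.4%, compares with 62.5% of all thresholded regions. Taking instead the highest replicate region within 250 bp, even if it is nearer to another summit, gave 30 of 38, or 78.9%, against 66.7%.

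Most summits were intronic, and few lay at starts. Features were read from the models of the gene itself. Of the 38, 33 were in introns, 2 in 5' UTRs, 1 in a 3' UTR and 2 upstream of the gene. None was in coding sequence of its own gene or in an annotated transposable element. Coding sequence of overlapping genes was not examined, and the upstream summit of Hr3, region 8, lies in the body of Hdc. The same count was not made over all thresholded summits, so no share stands beside these. The median distance to the nearest start of the same gene was 6155 bp, against 3355 bp over the 1467 pairs of a summit and a gene with a territory of at least 20 kb. Within 500 bp of a start of their own gene lay 2 of the 38, or 5.26%, against 18.3% of those pairs. The bin from 5 to 10 kb held 17 summits, 44.7% against 15.8%. Beyond 10 kb the order was the other way, with 7 summits, or 18.4% against 24.7%. Read from the starts, 2 of the 28 alternative starts had a summit within 500 bp, or 7.14%, against 11.1% of all 19252 starts of protein-coding genes. Those were the start of Eip75B-RC and the start shared by EcR-RD and EcR-RE. For 6 of the 38 the start of another protein-coding gene was nearer than any of their own gene. At Hr3 these were CG34221 for regions 1 and 2 and Hdc for region 8. At Hr4 they were CG3857 for region 1 and PIG-K for region 8, and at ftz-f1 Atg3 for the first region. A tie was counted for the gene itself, and no share over all summits was taken. Regions 3 to 7 of Hr3 are such ties, because CG46321 shares the start of Hr3-RA, Hr3-RF and Hr3-RH. The 38 summits come from 6 genes and share their neighbourhoods, so they are not independent of one another and the difference was not tested.

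**Figure D4:**
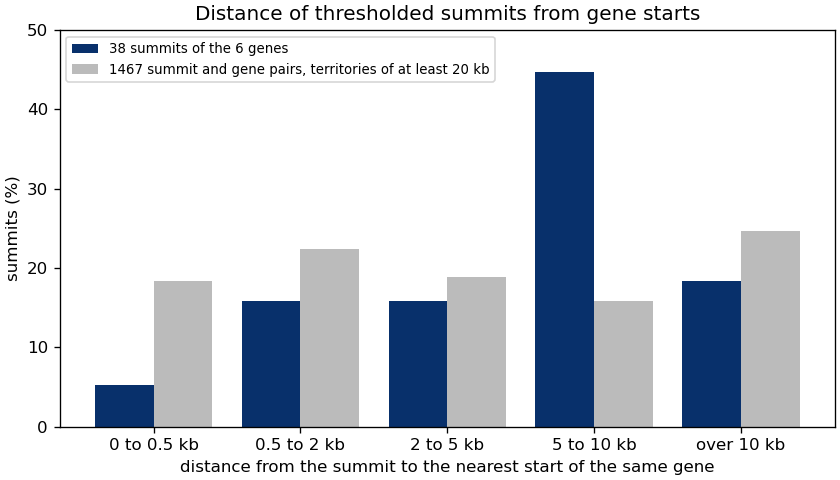
Share of thresholded summits by distance to the nearest start of the same gene, in percent. Dark bars are the 38 summits of the 6 genes and grey bars the 1467 summit and gene pairs in territories of at least 20 kb; the dark bar at 5 to 10 kb reaches 44.7% against 15.8%, and that at 0 to 0.5 kb reaches 5.26% against 18.3%, while beyond 10 kb it is 18.4% against 24.7%.

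Several summits at these genes came in close pairs. Of the 38, 8 had another thresholded summit within 250 bp, or 21.1%, against 8.58% of the 3612. They form 4 pairs, 199 or 200 bp apart, at Eip74EF, Eip75B and Hr3. Over the whole set, summits this close were 199 bp apart at the least, with a median of 202 bp, so the spacing is shared by the lists in general. Counted as joined sites, the 38 summits were 34 and the 3612 were 3457. A pair lies among the 3 summits of Eip74EF, so that gene has fewer than 3 joined sites. Counts and densities by gene are of summits before joining and were not taken again after it.

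The windows held at least 1 of the sites searched about as often as those of the whole thresholded set. The 10 motifs were sought on both strands in the 201 bases around each summit, and 13 of the 38 windows held at least 1 of them, or 34.2%, against 35.8% of all thresholded windows. The E-box CAGCTG was in none of the 38 and in 7.86% of the 3612. The longer GCAGCTG, which contains it, was in none and in 3.52%. The related GCAGGTG was likewise in none and in 1.19%. CATATG was in 4, or 10.5%, against 8.44%, at EcR, Eip75B, Hr3 and Hr4, and in the window of Hr3 region 1 it lay 4 bp from the summit. The half-site AGGTCA was in 2, at Eip74EF and ftz-f1, or 5.26%, against 3.99%. The longer nuclear receptor sites GGTCANTGA, part of the palindromic ecdysone response element, and CAAGGTCA, which contains AGGTCA and is the form that Ftz-F1 binds, were in none, and in 0.249% and 0.194% of all windows. The GAGA repeat GAGAGAG was in 4, or 10.5%, against 3.57%, at region 2 of EcR and regions 1, 5 and 8 of Eip75B. Regions 1 and 8 of Eip75B were each among the highest of 1 replicate only. The GATA site AGATAA was in 5, or 13.2%, against 15.4%, and CAGGTAG, the site of the early factor Zelda, in none, against 1.14%. Mean GC content was 38.4% ± 9.01 (SD, n = 38 windows), against 34.7% ± 6.90 over all 3612. With 38 windows, a share of a few percent amounts to 1 or 2 windows.

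Other genes of the pathway were described from 3 lists, of which the first held the other nuclear receptors. Thresholded summits lay at 8 of these 13 genes, or 61.5%, against 20.5% of all protein-coding genes, with 12 summits in all. Of the 4 with a territory of at least 20 kb, 3 had one, against 51.2% of such genes. Hnf4 had 3, Hr78 and ERR had 2 each, and Hr38, Hr51, Hr96, knrl and eg had 1 each. Their best summits stood 61 bp from an own start for Hr78, 125 bp for Hr96, 220 bp for ERR, 298 bp for eg and 459 bp for Hnf4, and farther for Hr51 (610 bp), Hr38 (1582 bp) and knrl (7584 bp). Starts of EMC6 and Atg18a were nearer to those of Hr96 and ERR. Of 15 genes for hormone synthesis, uptake and breakdown, 2 had a summit, or 13.3% against the same 20.5%. They were the oxygenase gene nvd and Oatp74D, which encodes a transporter that takes the hormone into cells. Of the 4 in this list with a territory of at least 20 kb, 2 had a summit, against 51.2% of such genes. The best region of Oatp74D, nearer the start of CG6333, had ranks of 350, 340 and 526 in replicates 1, 2 and 3.

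Of 30 other responsive genes and cofactors, 12 had a summit, or 40% against 20.5% of all protein-coding genes. Of the 12 with a territory of at least 20 kb, 9 had one, against 51.2%. The gene mld stands in both this list and the one for hormone synthesis and had no summit. The best ranked was E23, an ecdysone-induced transporter gene, with ranks of 76, 101 and 43, followed by the corepressor gene Smr with 180, 163 and 150, and the juvenile hormone receptor gene gce with 211, 238 and 193. ImpL2, which encodes a binding protein of insulin-like peptides, had 138, 345 and 177, and the lactate dehydrogenase gene Ldh, listed under its older name ImpL3, had 239, 255 and 323. The bZIP gene vri, the cyclin-dependent kinase gene Eip63E and tai, whose product is a coactivator of EcR, had 5 summits each, though the best of tai was nearer the start of CG9586. The remaining ones were br, a main early gene with a single summit that lay closer to the start of Mur2B, the zinc finger genes Blimp-1 and Kr-h1, and Eip63F-1. None of these listed genes had as many summits as Hr3, Hr4 or Eip75B. That compares counts over territories of unlike length. The territories of Hr3, Hr4 and Eip75B are 35.4, 68.0 and 115.7 kb. Those of vri, tai and Eip63E, with 5 summits each, are 24.3, 85.4 and 96.8 kb.

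By count of thresholded summits, the genes most like Eip75B were sbb and kirre with 11 each and Tlk and Raf with 10 each. The likeness rests on 1 count over the thresholded set, and none of these 4 territories shared a summit with another. Per 10 kb, Eip75B (0.950) lay above kirre (0.278) and below sbb (1.36), Tlk (1.39) and Raf (1.98).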

How the data were processed

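Region lists for the dm6 assembly were used as deposited: the thresholded set (3612 regions), the pooled list and 3 replicate lists (30000 each). Beside the replicates' own alignments the authors listed another as input of the pooled and replicate lists, which was not analysed here. The authors deposited a signal for each region whose scale differs from list to list, so replicates were compared by rank. The −log10 of the q-value was deposited by the authors in the same lists, by the column layout of the format. No source used here names the aligner or peak caller, and the lists hold no read counts, so depth is unknown. The dm3 lists were not used here.

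Summits were placed on Ensembl release 115 gene models (dm6 coordinates), and sequence came from the Release 6 RefSeq assembly, whose 6 arms all reach past the last deposited region. Alternative starts are transcript starts of the same gene. The members and lists were chosen with earlier results of these data known; named genes are the 9 members and every listed gene with a thresholded summit. Older symbols were matched for 6 listed genes through synonyms. Counts are set beside all protein-coding genes with no test. Functions for placing and matching summits and for finding motifs were tested on simulated data. Alternatives changed the territory, region set, matching rule and window. The software was numpy 2.4.6, pandas 2.3.3 and, for plots, matplotlib 3.10.9, under Python 3.11.15.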

Additional observations from a re-analysis of the deposited data

Results flagged for a closer look

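In the territories of these genes lay 25 pooled regions that missed the authors' threshold although their q-value was under 5%. They were noticed because they are a signal in data the counts leave out, and no control sample was analysed here to set beside them. Of the 9 genes, 8 had such a region: Eip75B had 7, Hr4 5, EcR 4, ftz-f1 3, Eip74EF and Hr3 2 each, and usp and Eip78C 1 each. Over all genes and arms, 2892 pooled regions were of this kind. Such a region was found at 15.5% of all protein-coding genes and at 572 of the 1143 with a territory of at least 20 kb; among the 9 genes, 8 have such a territory and 7 of those had one. A region with a q-value under 5% within 250 bp was found in all 3 replicates for 2 of the 25, in 2 replicates for 11, in 1 for 11 and in none for 1. The 2 found in all 3, at EcR and Eip75B, lie within 250 bp of a stronger thresholded summit, whose replicate regions they share. At the outer starts of Eip75B, where no thresholded summit was found, a pooled region with rank 3787 and its summit at 18063142 ranked 9589, 3561 and 2798 in replicates 1, 2 and 3, and another, 513 bp from the outermost start, had pooled rank 4482. At ftz-f1 the summit at 18765956, pooled rank 5594, lay 212 bp from the start shared by ftz-f1-RC and ftz-f1-RD.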

How the results depend on the processing

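Of 39 alternative values, 35 stayed within the range set for calling them alike and 4 did not. The range was wide. It called 26 summits, those found in all 3 replicates, alike to 38, and 8 genes with a summit alike to 6. The number of genes with a summit was 6 to 8 of 9 throughout, and 8 only with all pooled regions with a q-value under 5%, which added usp and Eip78C. With that set the summits numbered 63 in place of 38, and in the 50% of regions with the highest signal they numbered 22. The number of summits near an own start, 2 at 500 bp, was 1 at 250 bp and 4 at 1000 bp, as follows from the distance itself. When a replicate was left out and only regions among the highest of both others were kept, 28 to 29 summits at 6 genes remained, and the best mean rank was 39 to 48. Joined summits and the replicate lists read alone were added after seeing the data. The number of lists limits precision to 3 replicates of a single group. No paired analysis was possible because there is only 1 group. The lists give no reads, so depth could not be weighed.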

Other observations

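While the printed windows were read, a word of 9 bases, AGATGGCGC, was seen in 2 regions of Eip75B, and it was then counted everywhere. It was chosen after its values were seen. On both strands it was found in 3 of the 38 windows, or 7.89%, at regions 4 and 10 of Eip75B and region 3 of EcR, and in 31 of all 3612 windows, or 0.858%. The word occurs within sites known for the insulator protein CTCF. All 3 regions were among the highest in all 3 replicates. No test was run.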
